A study of Mus musculus with 8 samples.

Results

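The core circadian clock of mouse ovarian follicles is described here through 10 genes, chosen by name from the 55157 genes of the deposited table: *Clock*, *Arntl*, *Per1*, *Per2*, *Per3*, *Cry1*, *Cry2*, *Nr1d1*, *Nr1d2* and *Dbp*. All 10 names were found once each. The follicles were of morphological type 7 to 8 and came from Kunming mice, an outbred stock, at postnatal day 21. The 4 control libraries came from mice given pregnant mare serum gonadotropin (PMSG, which acts like follicle-stimulating hormone) with normal saline, and the 4 melatonin libraries from mice given PMSG with melatonin, in both groups 24 h earlier. All 8 libraries therefore carry the gonadotropin treatment, and there is no untreated group. The labels do not say whether a replicate is 1 animal or a pool, nor give the melatonin dose, so the p-values below reflect differences among these 8 samples, part of which may be technical. They also give no light schedule and no clock hour of collection, so a difference in time of day between libraries cannot be told apart from other differences between them.

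The circadian clock is a transcriptional feedback loop that runs in nearly every mammalian cell. CLOCK and ARNTL (also called BMAL1) bind E-box elements and switch on the *Per* and *Cry* genes, whose proteins return to the nucleus and block CLOCK and ARNTL. A second loop runs through NR1D1 and NR1D2 (REV-ERB alpha and beta), which are E-box targets themselves and repress *Arntl*, while ROR proteins activate it through the same elements. DBP is an output factor that binds D-box elements. Melatonin, the night hormone of the pineal gland, times the clock of several tissues, and in rodent ovaries clock genes are known to respond to gonadotropins.

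The elements through which these proteins act were sought in the promoters of the clock genes (RefSeq, GRCm38.p6, 250 bases before to 50 after a start site). The table held 13 promoters of 9 of the genes and none of *Per2*. The E-box CACGTG was in 2 of the 13 promoters (*Per1* and *Cry1*) and in 7.15% of all 32851 promoters. The related CACGTT was in 3 (*Cry1*, *Cry2* and *Nr1d1*) against 4.68% of all. The D-box (TTATGTAA or TTACGTAA) was in 1 (*Per3*) against 1.06% of all, and the core of the ROR and REV-ERB element (TAGGTCA or TGGGTCA) in 1 (*Arntl*) against 6.45%. The cAMP response element TGACGTCA was in none of the 13 and in 1.79% of all promoters. Both strands were searched, and a match is a run of letters and not a proven site. The promoters of *Cry1*, *Per1* and *Per3* are shown, as these genes had the smallest p-values in the comparison below among those with a match. They are written from upstream to downstream on the gene's strand, with the matches in capitals. In *Cry1* (chr10:85185005-85185304, minus strand) the E-box starts 60 bases before the start site, and the CACGTT element, read on the other strand as AACGTG, starts 79 bases before it. In *Per1* (chr11:69098699-69098998, plus strand, the more upstream of the listed starts) the E-box begins 166 bases before the start. In *Per3* (chr4:151044616-151044915, minus strand) the D-box TTATGTAA occurs at 205 and again at 158 bases before the start.
Cry1: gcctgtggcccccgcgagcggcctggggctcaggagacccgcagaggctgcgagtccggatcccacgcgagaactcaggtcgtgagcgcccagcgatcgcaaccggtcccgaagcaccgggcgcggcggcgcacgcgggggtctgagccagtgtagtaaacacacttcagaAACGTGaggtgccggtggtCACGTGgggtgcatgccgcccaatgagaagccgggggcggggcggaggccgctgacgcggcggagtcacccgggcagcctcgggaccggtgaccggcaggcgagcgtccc
Per1: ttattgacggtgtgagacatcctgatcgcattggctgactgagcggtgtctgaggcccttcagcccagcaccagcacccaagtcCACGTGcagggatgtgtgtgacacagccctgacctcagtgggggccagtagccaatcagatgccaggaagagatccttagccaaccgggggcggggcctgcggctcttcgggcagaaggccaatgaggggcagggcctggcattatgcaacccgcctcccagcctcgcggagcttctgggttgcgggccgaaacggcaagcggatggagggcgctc
Per3: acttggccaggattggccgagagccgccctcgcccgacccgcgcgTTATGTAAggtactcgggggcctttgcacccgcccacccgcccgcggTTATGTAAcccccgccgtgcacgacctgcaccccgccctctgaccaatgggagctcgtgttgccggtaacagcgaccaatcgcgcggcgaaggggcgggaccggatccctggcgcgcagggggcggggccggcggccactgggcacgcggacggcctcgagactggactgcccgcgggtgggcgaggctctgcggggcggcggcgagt

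The libraries held 17451111 to 22034312 implied fragments in control and 18553187 to 23649205 in melatonin, worked out from the FPKM values (fragments counted per gene, relative to its exon length and to the library's total) and exon lengths. Granulosa transcripts dominated, with *Inha* (inhibin alpha) at 6021 ± 772 FPKM (SD, n = 8), and the oocyte gene *Gdf9* stood at 102 ± 16.3 FPKM. The libraries' dependence on base composition moved with the groups. The Spearman correlation, across 14392 genes that are not independent, of a library's deviation with GC content lay between -0.02 and 0.26 for controls and between -0.18 and -0.12 with melatonin. Summed marker levels were 7045 to 8844 FPKM in control and 6038 to 6700 in melatonin for 8 granulosa genes (7 lower with melatonin on average), 93.2 to 120 and 53.6 to 93.0 for 8 theca genes (6 of the 7 tested lower), and 316 to 493 and 302 to 394 for 9 oocyte genes (8 lower). Most tested genes of the other marker lists were lower too: 7 of 7 for stroma, 5 of 5 for endothelium and 6 of 6 for leukocytes. It was 5 of 5 for surface epithelium, 3 of 3 for red blood cells and 2 of 3 for smooth muscle. The part of these marker levels in the clock gene values was not tested. In bulk follicles fewer cells of a type and less RNA per cell cannot be told apart.

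All 10 clock genes were expressed, at low to middling levels. *Nr1d2* was the most abundant at 15.3 ± 2.17 FPKM over the 8 libraries, above 74.0% of the 14738 genes that averaged 1 FPKM or more, and its range did not overlap that of any other clock gene. *Nr1d1* (9.35 ± 1.43), *Per1* (9.19 ± 1.66), *Cry1* (8.96 ± 1.11) and *Cry2* (8.35 ± 0.67) followed, and neighbours in this order overlapped. *Cry2* lay above *Clock* (5.76 ± 0.68) in all 8 libraries without overlap of their ranges. *Per3* (4.51 ± 0.55), *Dbp* (3.43 ± 0.97), *Per2* (1.51 ± 1.07) and *Arntl* (1.16 ± 0.073) made up the low end, again with overlapping neighbours. *Arntl* was above 3.67% of the tested genes only. The activator *Clock* was thus at 3.83 to 6.30 times the FPKM of its partner *Arntl* in every library.

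**Figure D1:**
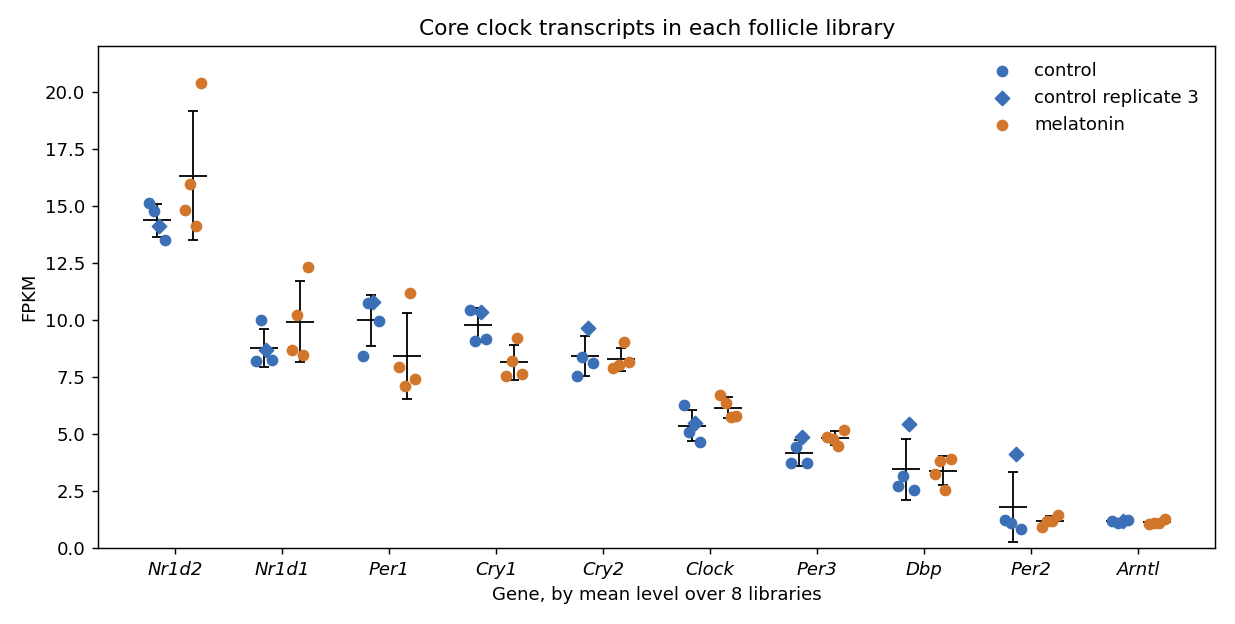
FPKM of each clock gene in the 4 control (blue) and 4 melatonin (orange) libraries, with group means and SD as black lines and control replicate 3 as a diamond. The groups overlap in all 10 genes, and control replicate 3 stands far above the other controls for *Per2* (4.12 FPKM) and *Dbp* (5.43 FPKM).

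No clock gene differed between the groups past the threshold. In limma on log2(FPKM + 1), 0 of the 10 had a Benjamini-Hochberg adjusted p under 0.05, and neither did any of the 14738 genes tested (0.0%). An unadjusted p under 0.05 was found for 1 clock gene, *Cry1*, and for 19.1% of all tested genes, so this count is not above the background. limma-voom on recovered fragments also gave 0 clock genes past the adjusted threshold. It gave 3 at an unadjusted p under 0.05, beside 2670 of all 13748 genes in that fit. In 0 of the 10 clock genes did the groups fail to overlap, which was the case in 11.7% of all tested genes (5.79% higher and 5.94% lower with melatonin). On average 5 clock genes were higher and 5 lower with melatonin. Their median log2 fold change was -0.01, as was that of all tested genes (-0.01), and the median size of the change without its sign was 0.17 against 0.11. The 95% intervals bound the differences: 8 of 10 lay within 0.5 on the log2 scale in either direction, and all 10 within 1. The scale of FPKM + 1 understates changes of the low genes *Arntl* and *Per2* most.

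**Figure D2:**
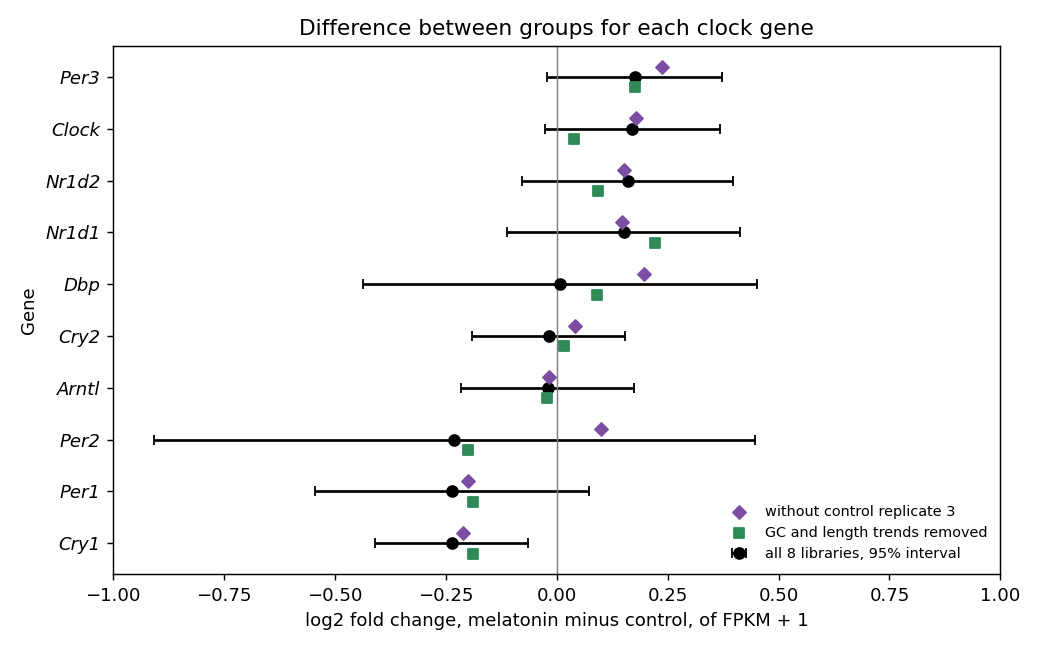
Log2 fold change of FPKM + 1, melatonin minus control, for each clock gene (black, with its 95% interval), without control replicate 3 (purple diamonds) and after removal of GC and length trends (green squares). *Cry1* is the single gene whose interval lies to one side of 0, and *Per2* moves from -0.23 to 0.10 when control replicate 3 is left out.

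Among the activators, *Arntl* (ENSMUSG00000055116, chromosome 7, 113207465 to 113314126, mm10) had the smallest coefficient of variation of the clock genes over the 8 libraries, though not within the melatonin group. It had 1.18, 1.10, 1.19 and 1.22 FPKM in control replicates 1 to 4 and 1.06, 1.10, 1.12 and 1.28 in melatonin replicates 1 to 4. The groups overlapped almost wholly, and the log2 fold change was -0.02 ± 0.086 (SE; interval -0.22 to 0.17; limma adjusted p = 0.914). Each value rested on 144 to 205 fragments, for which counting error alone gives a coefficient of variation of 7.38%, and the observed one over the 8 libraries was 6.33%. Differences between libraries were therefore not detectable beyond counting error at this depth.

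*Clock* (ENSMUSG00000029238, chromosome 5, 76209868 to 76304792) encodes the partner of ARNTL. Its values were 6.27, 5.09, 5.47 and 4.67 FPKM in control and 6.70, 6.38, 5.73 and 5.81 in melatonin. The melatonin libraries exceeded 3 of the controls, and control replicate 1 lay among them. Melatonin minus control gave a log2 fold change of 0.17 ± 0.086 (SE; interval -0.03 to 0.37; limma adjusted p = 0.320). Without control replicate 1 the groups did not overlap (log2 fold change 0.24, unadjusted p = 0.0161, limma adjusted p = 0.204). In that setting 1347 of all 14738 genes tested were higher with melatonin without overlap. Leaving out control replicate 1, which alone made the groups overlap, fixes the lack of overlap in advance. With any other single library left out, the unadjusted limma p for *Clock* was 0.0729 to 0.199. With GC and length trends removed the *Clock* difference was 0.04, and the *Clock* transcript has 40.9% GC, the lowest of the 10 genes.

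Paralogs of the activators were low. *Npas2*, which can stand in for CLOCK, averaged 0.272 ± 0.076 FPKM in controls and 0.282 ± 0.11 in melatonin libraries (SD) and was not tested. *Arntl2*, the paralog of ARNTL, had 1.63 ± 0.61 and 1.79 ± 0.46 FPKM, above *Arntl* itself in the mean of both groups.

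The period genes encode the repressors that pair with cryptochromes. *Per1* (ENSMUSG00000020893, chromosome 11, 69095217 to 69109960), which also acts as a fast-responding gene downstream of cAMP, had 8.43, 10.8, 10.8 and 9.93 FPKM in control and 7.93, 7.11, 11.2 and 7.40 in melatonin. Melatonin replicates 1, 2 and 4 lay below all controls and melatonin replicate 3 above them all. On the log2 scale the difference was -0.24 ± 0.14 (SE; interval -0.54 to 0.07; limma adjusted p = 0.371). Without melatonin replicate 3 it was -0.37 and the groups did not overlap (unadjusted p = 0.00408, limma adjusted p = 0.130). In that setting 1502 of all 14738 genes tested were lower with melatonin without overlap. Leaving out melatonin replicate 3, which alone made the groups overlap, fixes the lack of overlap in advance. With any other single library left out, the unadjusted limma p for *Per1* was 0.0610 to 0.264.

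*Per2* (ENSMUSG00000055866, chromosome 1, 91415982 to 91459324) had 1.23, 1.09, 4.12 and 0.845 FPKM in control and 0.946, 1.21, 1.20 and 1.44 in melatonin. Control replicate 3 stood at 3.91 times the mean of the other controls and above all 7 other libraries, which ranged from 0.845 to 1.44. The value rests on 531 fragments against 109 to 180 in the other libraries. The log2 fold change was -0.23 ± 0.30 (SE; interval -0.91 to 0.45; limma adjusted p = 0.697), and 0.10 without that library. The direction of *Per2* was therefore set by 1 library.

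*Per3* (ENSMUSG00000028957, chromosome 4, 151003652 to 151044665), a period gene that the loop can run without in mice, had 3.71, 4.44, 4.87 and 3.72 FPKM in control and 4.89, 4.79, 4.48 and 5.20 in melatonin. The melatonin values were all above 3 of the controls. The difference gave a log2 fold change of 0.18 ± 0.086 (SE; interval -0.02 to 0.37; limma adjusted p = 0.308). It was 0.24 with no overlap when control replicate 3 was left out (unadjusted p = 0.0173, limma adjusted p = 0.268). In that setting 1006 of all 14738 genes tested were higher with melatonin without overlap. Leaving out control replicate 3, which alone made the groups overlap, fixes the lack of overlap in advance. With any other single library left out, the unadjusted limma p for *Per3* was 0.0644 to 0.179. The ratio of *Per1* to *Per3* within a library, which does not depend on its scaling, was 2.21 to 2.67 in control and 1.62, 1.49, 2.50 and 1.42 in melatonin replicates 1 to 4.

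The cryptochrome genes encode the stronger repressors of CLOCK and ARNTL. *Cry1* (ENSMUSG00000020038, chromosome 10, 85131700 to 85185064) had 10.5, 9.09, 10.4 and 9.18 FPKM in control and 7.55, 8.18, 9.21 and 7.65 in melatonin. Melatonin replicate 3 reached the range of the controls and the other melatonin libraries lay below it. The log2 fold change was -0.24 ± 0.075 (SE; interval -0.41 to -0.06), with an unadjusted p of 0.0127 and a limma adjusted p of 0.169. A smaller p was found for 7.52% of all tested genes. *Cry1* did not pass the threshold in any of 17 alternative settings (adjusted p from 0.125 to 0.364), and its unadjusted p was under 0.05 in all 17.

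*Cry2* (ENSMUSG00000068742, chromosome 2, 92403646 to 92434043) had 7.54, 8.38, 9.64 and 8.11 FPKM in control and 7.92, 8.02, 9.01 and 8.17 in melatonin, with the groups interleaved and a log2 fold change of -0.02 ± 0.075 (SE; interval -0.19 to 0.15; limma adjusted p = 0.917). Opposite-strand exons of *D930015M05Rik* share 4.67% of its exon bases, and no source used here says whether counting used strand. The ratio of *Cry1* to *Cry2* was 1.39, 1.09, 1.08 and 1.13 in control and 0.953, 1.02, 1.02 and 0.937 in melatonin, without overlap between the groups. It is 1 of 10 ratios computed and was picked out after its values were seen.

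**Figure D3:**
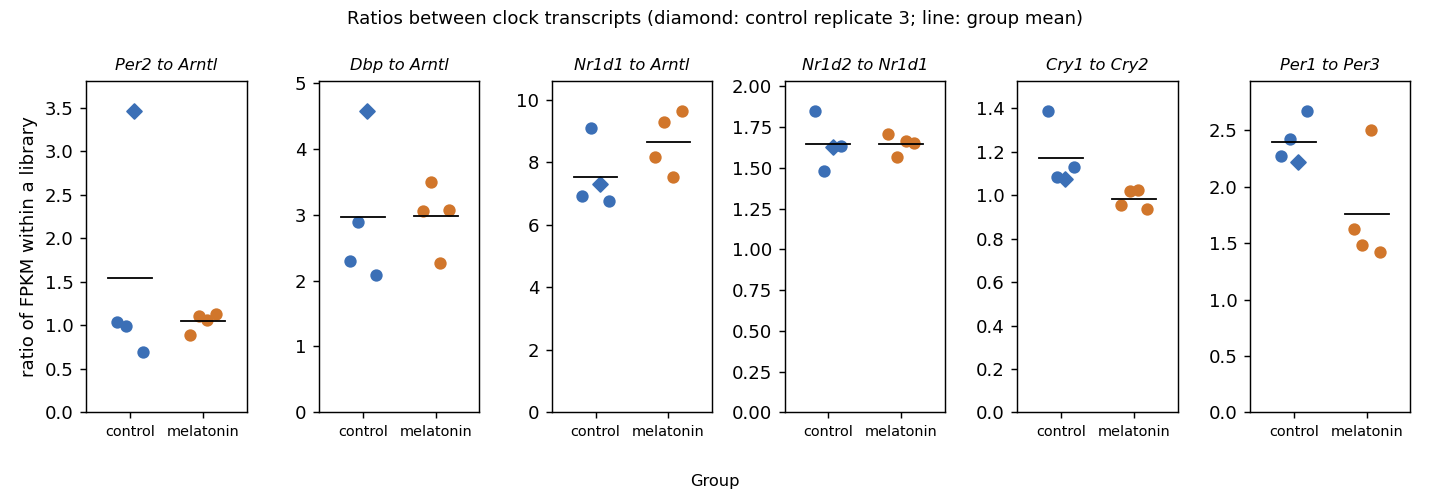
Ratios of FPKM between clock transcripts within each library, for control (blue) and melatonin (orange), with group means as lines and control replicate 3 as a diamond. *Cry1* to *Cry2* is the single ratio shown whose groups do not overlap, and *Nr1d2* to *Nr1d1* has the same mean, 1.65, in both groups.

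The REV-ERB genes form the second loop. *Nr1d1* (ENSMUSG00000020889, chromosome 11, 98767932 to 98775333) had 8.18, 9.98, 8.67 and 8.25 FPKM in control and 8.69, 10.2, 8.46 and 12.3 in melatonin. *Nr1d2* (ENSMUSG00000021775, chromosome 14, 18204054 to 18239127) had 15.1, 14.8, 14.1 and 13.5 in control and 14.8, 16.0, 14.1 and 20.4 in melatonin. Both were highest in melatonin replicate 4. Melatonin replicate 2 also lay above all controls in both genes, and melatonin replicates 1 and 3 lay within the range of the controls. Melatonin replicate 4 also had the largest summed theca marker level of its group, 93.0 FPKM against 53.6 to 57.4. Its stroma (46.6 FPKM), endothelium (11.6), leukocyte (44.5) and surface epithelium (30.9) marker sums were the largest of its group too. Its granulosa, smooth muscle and red blood cell sums were not, and its oocyte sum (302 FPKM) was the smallest. In the controls the theca sum was 93.2 to 120 FPKM and the stroma sum 36.8 to 75.4. Control sums were 9.64 to 15.3 FPKM for endothelium, 28.0 to 135 for leukocytes and 25.4 to 47.1 for surface epithelium. The part of these cells in the clock gene values of melatonin replicate 4 was not tested. The log2 fold changes were 0.15 ± 0.11 (SE) for *Nr1d1* (interval -0.11 to 0.41; limma adjusted p = 0.498) and 0.16 ± 0.10 for *Nr1d2* (interval -0.08 to 0.40; limma adjusted p = 0.432). Without melatonin replicate 4 both came to 0.05. The ratio of *Nr1d2* to *Nr1d1* stayed between 1.48 and 1.85 in all libraries, with means of 1.65 ± 0.15 for controls and 1.65 ± 0.060 with melatonin (SD). *Nr1d1* shares 8.55% of its exon bases with opposite-strand exons of *Thra*, the thyroid hormone receptor alpha gene at 28.6 FPKM, so part of its value may be *Thra* reads.

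*Dbp* (ENSMUSG00000059824, chromosome 7, 45705088 to 45710203), the D-box output gene, had 2.72, 3.16, 5.43 and 2.55 FPKM in control and 3.25, 3.83, 2.56 and 3.92 in melatonin. Control replicate 3 was again the highest, at 1.93 times the mean of the other controls. The log2 fold change was 0.01 ± 0.19 (SE; interval -0.44 to 0.45; limma adjusted p = 0.990) and 0.20 without that library. Exons of *Sphk2* on the opposite strand, at 12.3 FPKM, cover 18.0% of the *Dbp* exon bases, so reads of both genes may be mixed in this value.

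**Figure D4:**
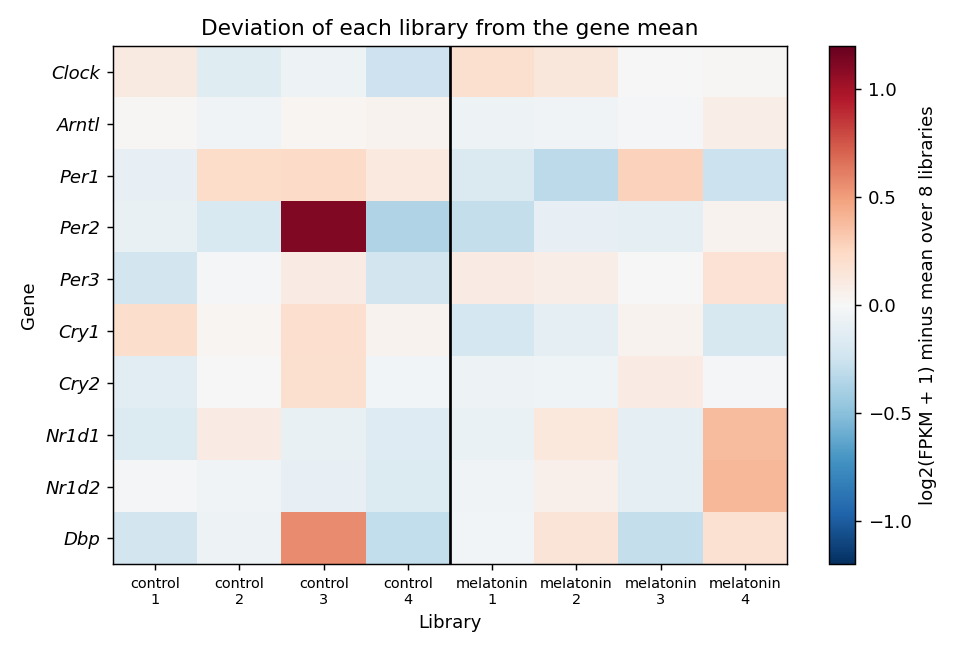
Deviation of log2(FPKM + 1) of each library from the gene's mean over 8 libraries, clock genes in rows and libraries in columns (red above, blue below the mean). The strongest cell is *Per2* in control replicate 3, followed by *Dbp* in the same library, and *Nr1d1* and *Nr1d2* share their high value in melatonin replicate 4.

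Single libraries stood apart in several clock genes. Control replicate 3 held the highest of the 8 values for *Per2*, *Cry2* and *Dbp*, and melatonin replicate 4 for *Arntl*, *Per3*, *Nr1d1* and *Nr1d2*. Among the controls, replicate 3 was highest for 5 of the 10 clock genes, against 26.6% of all tested genes. Its excess over the other controls was 3.91-fold for *Per2* and 1.93-fold for *Dbp* but 1.02-fold for *Arntl* and 0.985-fold for *Nr1d1*. The excess of *Per2* was larger than that of 99.7% of tested genes. The same library had the largest summed level of 7 leukocyte markers, 135 FPKM against 28.0 to 65.8 in the other controls and 26.5 to 44.5 in melatonin. The sum of 3 red blood cell genes was also largest there, at 1463 FPKM against 63.7 to 843 and 116 to 459. That library's summed granulosa (8844 FPKM) and theca (120 FPKM) marker levels were the largest of the 8 libraries as well. Summed oocyte, stroma, smooth muscle, endothelium and surface epithelium marker levels were not largest there. The correlation of its deviation with GC content, 0.26, was also the largest. The part of these cells and of base composition in the *Per2* and *Dbp* values was not tested.

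Clock partners outside the core loop were measured as a list of 12, of which 8 had a mean of at least 1 FPKM and were tested. Of these 0 passed the adjusted threshold in limma, 4 were higher and 4 lower on average, and the median log2 fold change was -0.03 against -0.01 for all tested genes. An unadjusted p under 0.05 was found for 2 of the 8, both higher, as for 9.4% of all tested genes. *Rora*, which encodes an activator of *Arntl*, had 1.38, 1.83, 1.23 and 1.77 FPKM in control and 2.44, 1.84, 1.93 and 2.74 in melatonin, without overlap (log2 fold change 0.34, limma adjusted p = 0.206). With GC and length trends removed the *Rora* difference was 0.21. The 6 tested partners with a larger p had log2 fold changes between -0.12 and 0.10. *Ciart*, a repressor of CLOCK and ARNTL, had 3.30 ± 0.44 and 3.11 ± 0.12 FPKM, and *Bhlhe40*, an E-box repressor, 5.25 ± 0.64 and 5.30 ± 0.93. *Tef*, a D-box factor related to DBP, had 14.5 ± 2.09 and 13.6 ± 1.23, and *Nfil3*, which represses at D-boxes, 9.92 ± 2.22 and 9.11 ± 1.33 (SD, n = 4 each).

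Kinases, ubiquitin ligases and corepressors that act on or with the clock proteins made up another list. Of 17 listed, 16 were tested, 0 passed in either direction, 11 were higher and 5 lower, and the median was 0.02. *Csnk1d*, a kinase that marks PER proteins for decay, stood at 43.0 ± 3.42 FPKM in controls and 43.5 ± 0.95 with melatonin. The smallest p-values were those of *Prkaa1*, a catalytic subunit of AMP-activated kinase, which phosphorylates CRY1, and *Sirt1*, a deacetylase acting on PER2 and ARNTL. *Prkaa1* had 11.3 to 11.7 FPKM in control and 12.2 to 13.0 in melatonin without overlap (log2 fold change 0.12, limma adjusted p = 0.180), and 0.04 after removal of GC and length trends. *Sirt1* had 10.5 ± 0.87 and 12.1 ± 1.09 (log2 fold change 0.19, limma adjusted p = 0.236).

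Genes that are rhythmic in many tissues had 11 of 12 tested, 0 past the threshold, 8 lower and 3 higher, and a median of -0.08. Control replicate 3 was the highest control for 6 of the 11 and the lowest for 2, against 26.6% and 28.3% of all tested genes. *Nampt*, the rate-limiting enzyme of NAD salvage and a CLOCK target, had 14.3, 13.4, 15.3 and 12.1 FPKM in control and 11.6, 10.7, 12.2 and 12.4 in melatonin (log2 fold change -0.21, limma adjusted p = 0.207). *Usp2*, a deubiquitinase, had 2.80 ± 0.32 and 2.34 ± 0.15 (limma adjusted p = 0.268).

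The cAMP and immediate-early genes, the class to which *Per1* also belongs, were lower on average in 10 of 11, with 0 past the threshold and a median of -0.52. An unadjusted p under 0.05 with a lower melatonin value was found for 4 of 11, against 9.74% of all tested genes, and the groups of these 4 did not overlap, against 5.94% of all tested genes that were lower without overlap. *Dusp1*, a phosphatase that ends MAP kinase signals, had 13.0, 12.8, 17.8 and 11.1 FPKM in control and 4.41, 5.44, 8.91 and 9.13 in melatonin (log2 fold change -0.91, limma adjusted p = 0.138). *Btg2*, an antiproliferative gene, had 45.0 ± 5.44 and 28.5 ± 3.46 (SD, n = 4 each; log2 fold change -0.64, limma adjusted p = 0.120). *Fos*, a subunit of AP-1, had 262, 220, 141 and 224 FPKM in control and 102, 124, 174 and 195 in melatonin. Control replicate 3, where *Per2* peaked, was the lowest control for 7 of these 11 genes and the highest for 2, against 28.3% and 26.6% of all tested genes.

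Glucocorticoid-induced genes, another class that takes in *Per1* and *Per2*, had 7 of 9 tested, 0 past the threshold, 6 lower and 1 higher, and a median of -0.11. *Mt1*, a metallothionein, had 85.8 ± 9.77 and 67.4 ± 8.64 FPKM (log2 fold change -0.35, limma adjusted p = 0.158), and *Tsc22d3* 7.78 ± 0.30 and 8.40 ± 1.15. Control replicate 3 was the highest control for 2 of the 7 tested and the lowest for 4, against 26.6% and 28.3% of all tested genes. In that library *Sgk1* stood at 21.5 FPKM against 2.86 to 5.25 in the other controls, and *Ddit4* at 78.2 against 27.6 to 34.6. *Fkbp5* (24.2 against 26.4 to 32.9) and *Tsc22d3* (7.41 against 7.74 to 8.14) were the lowest of the controls in that library. *Sgk1*, *Ddit4*, *Fkbp5* and *Tsc22d3* were picked out after their values were seen.

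**Figure D5:**
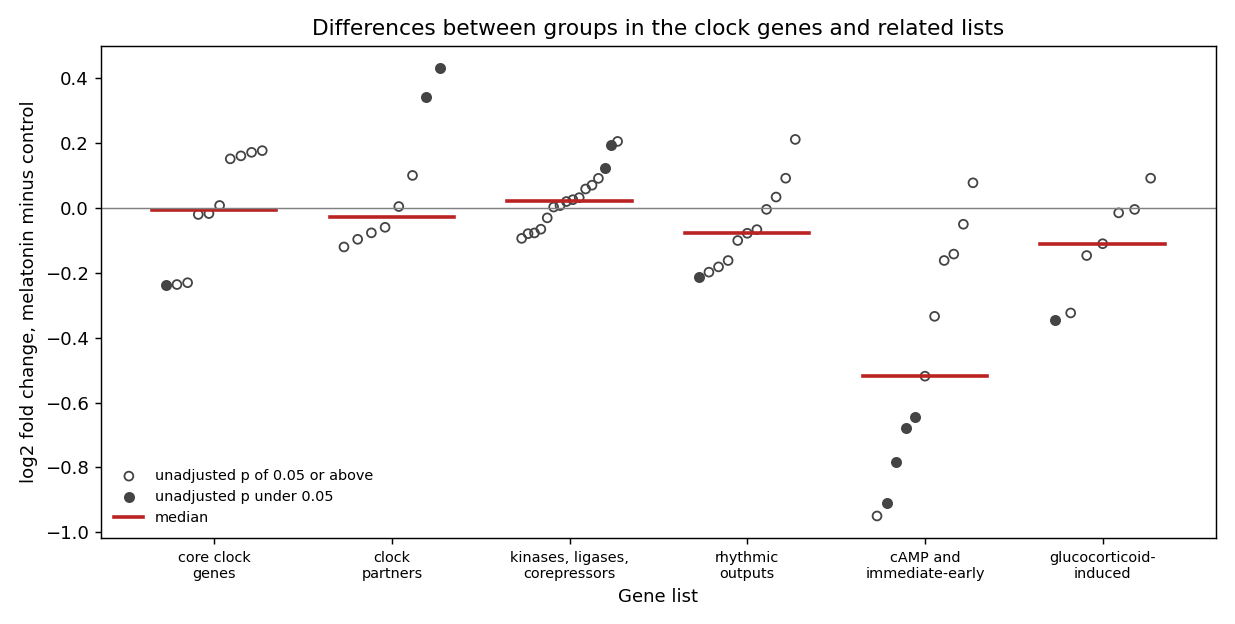
Log2 fold change, melatonin minus control, of each tested gene in the core clock and 5 related lists (filled where the unadjusted p was under 0.05, red line at the list median). The clock genes centre on -0.01 and the cAMP and immediate-early genes on -0.52.

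Melatonin receptor transcripts were near or at 0. *Mtnr1a* was listed with 1 fragment in the 8 libraries together and *Mtnr1b* with 0, which allows up to 0.00982 FPKM over the 8 libraries for the latter (3 fragments, counting error only). *Nqo2*, a quinone reductase that binds melatonin, averaged 5.01 ± 0.25 FPKM in controls and 4.81 ± 0.42 with melatonin (SD; limma adjusted p = 0.723).

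The genes whose levels followed each clock gene most closely from library to library were sought by Pearson's r over the 8 libraries, after centring each group on its own mean. With 14737 candidates and 8 libraries, 23 to 117 genes exceeded an r of 0.9 for each clock gene, so the closest one is a description of these libraries. The closest were *Trak2* for *Arntl* (0.989), *Zfp354a* for *Clock* (0.968), *Med24* for *Per1* (0.978), *B3gat3* for *Per2* (0.989) and *Chst15* for *Per3* (0.989). For the others they were *Ndufb9* for *Cry1* (0.992), *Gm17751* for *Cry2* (0.984), *Ubr4* for *Nr1d1* (0.984), *Mdn1* for *Nr1d2* (0.988) and *B9d1os* for *Dbp* (0.969). None of the closest was a clock gene or a listed partner. *B9d1os* had 5.72 FPKM in control replicate 3 against 1.68 to 2.65 in the other 7 libraries, and *B3gat3* had 46.1 against 37.7 to 40.2, so both followed the library in which *Dbp* and *Per2* peaked.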

How the data were processed

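RNA of type 7 to 8 follicles was profiled in 8 libraries (4 control, 4 melatonin), prepared with a NEBNext Ultra kit per the labels. The submitters' processing notes name HISAT2 2.0.5 and the mm10 build. How fragments were counted, with which annotation and strand setting, is not given in the sources used here. As deposited, the values are FPKM per gene, per the file headers, so they are relative within a library. The series table and the sample files differed in 0 values.

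Exon lengths from GENCODE M21 (mm10, 54409 genes matched) turned 98.8% of values of up to 30 fragments into whole numbers within 0.05, which gave the depth. The 14738 genes that averaged 1 FPKM or more entered limma 3.58.1 (R 4.3.3) on log2(FPKM + 1), with group as the single term, an intensity trend and Benjamini-Hochberg adjustment at 0.05. The fit was tested on simulated data with noise drawn independently for each gene, so without the base composition trends of these libraries. The clock genes and lists were chosen with earlier results of these data known. Named were all 10 clock genes, the 2 tested genes per list with the lowest p, the melatonin receptors, the most abundant markers and the closest gene to each clock gene. Others were named for their role, with their values known. Some genes that this rule names are not reported here. Alternatives were pseudocount, filter, scaling, weights, a replicate block and leaving out each library. limma-voom on recovered fragments and removal of GC and length trends (splines with 5 degrees of freedom) were added after the data were seen. Python 3.11.15 was used for tables.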

Additional observations from a re-analysis of the deposited data

Results flagged for a closer look

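*Per2* in control replicate 3, at 4.12 FPKM, lay far from the other 3 controls (0.845 to 1.23 FPKM). The gap to the nearest of them was 0.883 of the whole control range, above Dixon's 95% critical value for 4 samples. It was the only value so found among 20 groups of 4 (10 clock genes in 2 groups), and chance alone gives about 1 in 20. *Dbp* in the same library (5.43 FPKM) did not reach that value.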

How the results depend on the processing

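Over 17 alternative settings the 10 clock genes gave 166 log2 fold changes, of which 156 kept the direction, 10 reversed and 0 passed the adjusted threshold (lowest adjusted p 0.125). Reversals were those of genes with differences near 0 or set by 1 library. *Per2* ran from -0.39 to 0.10 when 1 library was left out, with 0.10 without control replicate 3. *Cry2* ran from -0.063 to 0.042 with 1 library left out and was 0.016 after removal of GC and length trends. *Dbp* ran from -0.089 to 0.196 with 1 library left out and was -0.023 after quantile normalization. The cause of the reversals was not tested. The 1 clock gene at an unadjusted p under 0.05 became 2 with the replicate block, 3 with limma-voom on recovered fragments, and 1 to 2 with 1 library left out. Over all genes these settings gave 2776 of 14738, 2670 of 13748, and 1923 to 3267 of 14738. The number of clock genes whose groups did not overlap was 0 in all settings with 8 libraries, and 0 to 2 with 1 left out. With 1 left out, the groups did not overlap in 2024 to 3019 of all 14738 genes tested. Over all genes, 1 passed without a filter (*Mir6947*) and 0 to 1 with 1 library left out (*C1rb*, without control replicate 1), both named after their values were seen. With a filter of 5 FPKM, *Arntl*, *Per2*, *Per3* and *Dbp* could not be fitted. At an unadjusted p under 0.05, 1385 genes were higher and 1436 lower of 14738 tested, against 1648 and 1022 of 13748 with limma-voom. The deviations of same-numbered libraries had correlations across genes of -0.10 to 0.15, and the 0.15 of replicates 3 was the largest of all control and melatonin pairs. The labels do not say whether the replicate numbers pair the samples. These correlations cannot decide it, as a weak shared effect could go unseen. Depth limits *Per2*, *Dbp* and *Arntl* most, with as few as 109, 142 and 144 fragments in a library.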

Other observations

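*Aanat*, which encodes the enzyme that acetylates serotonin on the way to melatonin, was below the filter and was not tested. It had 0.33, 0.34, 0.27 and 0.11 FPKM in control and 0.13, 0.08, 0.06 and 0.06 in melatonin, on 47 fragments in all 8 libraries together, and the groups overlapped. *Asmt*, the enzyme of the last step, had 0.164 ± 0.049 and 0.158 ± 0.098 FPKM (SD, n = 4 each) on 32 fragments. *Aanat* was picked out after its values were seen. The D-box factor *Hlf* had 0.476 ± 0.14 and 0.557 ± 0.082 FPKM, and the E-box repressor *Bhlhe41* 0.873 ± 0.21 and 0.780 ± 0.12, both below the filter.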
